A study of Rattus norvegicus with 129 samples.

Results

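Nqo1, Akr7a3, Akr1b8, Ephx1, Gclc, Gclm, Txnrd1, Srxn1 and Hmox1 are 9 rat genes known as targets of the transcription factor NRF2, and their liver mRNA was followed here through 5 rat studies of foreign chemicals. They were chosen by name, as every probe set whose platform annotation names 1 of them alone, and make up 9 of the 14372 genes annotated in the series. The array of the phenobarbital, PCN, D3T and 3-week PFOS rats measured 7 of them with 12 probe sets, leaving Akr1b8 and Srxn1 unmeasured in those rats. The array of the Wy-14643 rats measured all 9 with 11 probe sets, and that of the PFOA and PFOS males measured all 9 with 13. No probe set annotated to several genes named any of the 9.

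NRF2 is held in the cytoplasm by KEAP1, which marks it for degradation. Electrophiles and oxidants modify cysteines of KEAP1, after which NRF2 accumulates, pairs with a small MAF protein in the nucleus and binds antioxidant response elements. Its targets encode enzymes that reduce quinones and carbonyls, open epoxides, make glutathione and keep thiols reduced, and in liver they are the classical response to dithiolethiones such as D3T.

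Phenobarbital (PB) and pregnenolone-16alpha-carbonitrile (PCN), drugs that act through the nuclear receptors CAR and PXR, were given to male and female Sprague-Dawley rats by gavage at 100 mg/kg, and their controls received the methylcellulose and Tween vehicle. There were 5 rats for each sex, time and treatment, with livers collected 6 h or 24 h after 1 dose and, in rats dosed on 5 days, 24 h after the final dose. Female Sprague-Dawley rats, 4 weeks old, ate a diet with D3T (a dithiolethione) at 600 mg/kg or the same diet without it, 4 rats each. Male Sprague-Dawley rats of 10 weeks received the perfluorinated acids PFOA, as its ammonium salt at 20 mg/kg/day, or PFOS, as its potassium salt at 10 mg/kg/day, or the Alkamuls vehicle by gavage, 3 rats each. The labels used here give no duration for those males. Female Sprague-Dawley rats, 60 days old, received PFOS at 5 mg/kg by gavage on each of 21 days or the Tween-20 vehicle, 2 rats each. Male Wistar Hanover rats received Wy-14643, an agonist of the nuclear receptor PPARA, at 60 mg/kg/day or carboxymethyl cellulose for 1, 3 or 7 days, 3 rats each; the label of 1 of the rats treated for 3 days gives no dose.

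All samples were whole liver on 1-colour arrays with 1 array per rat. Levels are given as log2 of the normalised probe intensity plus 16, so that the lowest value is 4.00, and a change is the difference of 2 group means on that scale, with its standard error (SE). That scale understates the change of dim probe sets. A change was called where limma's p-value, adjusted over all probe sets of the array by Benjamini-Hochberg, was under 0.05. Levels of different probe sets are not comparable with each other. In whole liver, fewer cells of a type and less RNA per cell cannot be told apart.

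RefSeq's promoter table (assembly GRCr8) held 10 promoters for 8 of the 9 genes, each reaching from 250 bases before to 50 after a start site. The core of the antioxidant response element was searched on both strands as TGACNNNGC, where N is any base, and 12.06 percent of the 33469 promoters of the table held it. It was found in the only promoter listed for Gclm, in 1 of 2 listed for Txnrd1 and in 1 of 2 listed for Ephx1. It was not found in those listed for Nqo1, Akr7a3, Akr1b8, Gclc or Srxn1, which says only that these letters are not in those windows. The 250 bases before each of those 3 start sites are shown because they carry the match, written 5′ to 3′ on the strand of the gene with the match in capitals. Each match lies on the opposite strand, so it reads as the reverse complement of the core. The Gclm sequence is chr2:213031885-213032134 on the plus strand, with the match beginning at position -172 from the start. The Txnrd1 sequence is chr7:22755905-22756154 on the minus strand (match at -78), and the Ephx1 sequence is chr13:95263118-95263367 on the minus strand (match at -57).
Gclm: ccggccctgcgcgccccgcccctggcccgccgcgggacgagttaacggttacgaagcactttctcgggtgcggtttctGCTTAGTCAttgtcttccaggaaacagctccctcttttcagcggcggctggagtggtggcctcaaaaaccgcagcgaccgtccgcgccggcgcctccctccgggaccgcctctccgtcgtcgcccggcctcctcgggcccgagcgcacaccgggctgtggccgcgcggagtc
Txnrd1: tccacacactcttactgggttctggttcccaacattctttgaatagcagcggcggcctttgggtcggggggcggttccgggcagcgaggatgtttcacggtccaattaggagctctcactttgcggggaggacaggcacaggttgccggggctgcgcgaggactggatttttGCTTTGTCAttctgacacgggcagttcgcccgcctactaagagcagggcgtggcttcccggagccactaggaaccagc
Ephx1: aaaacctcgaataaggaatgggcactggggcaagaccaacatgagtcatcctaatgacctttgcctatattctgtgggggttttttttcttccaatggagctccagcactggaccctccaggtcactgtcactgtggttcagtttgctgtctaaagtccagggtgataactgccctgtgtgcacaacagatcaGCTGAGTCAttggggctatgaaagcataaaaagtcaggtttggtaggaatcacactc

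The 129 deposited arrays had mean intensities between 92.2 and 609.2 units per array, and the number of arrays, not a read depth, sets the precision here. The array of 1 vehicle male at 6 h, rat 1003, was left out: 3731 of its values (42.4 percent) stood 1 row away from their probe sets, including 6 of the 12 probe sets described here, so that group has 4 rats. None of the 11 hepatocyte markers measured in each study was at the floor in both groups of any treatment comparison. In RefSeq's GRCr8 annotation Nqo1 lies at chr19:52205374-52220267, Akr7a3 at chr5:156876721-156884599, Akr1b8 at chr4:63964421-63976995, Gclc at chr8:87510251-87548896, Gclm at chr2:213032135-213052192, Txnrd1 at chr7:22717620-22802553, Hmox1 at chr19:13452365-13479823, Ephx1 at chr13:95246079-95275852 and Srxn1 at chr3:161064812-161070372.

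The question of the D3T diet is which genes the dithiolethione changed. With the arrays scaled to each other, the aldehyde reductase Akr7a3, the quinone reductase Nqo1 and the microsomal epoxide hydrolase Ephx1 rose. Before scaling the D3T arrays were all dimmer than the control arrays, with mean intensities of 92.2 to 116.5 units on D3T arrays and 275.6 to 416.6 on control arrays, so every change in this study is relative to the other probe sets of an array. Akr7a3, which in rat is known as aflatoxin aldehyde reductase, stood at 11.42, 11.01, 11.33 and 11.51 in the 4 D3T livers, against 7.89, 8.17, 7.94 and 7.84 in the 4 control livers. Its change was 3.36 ± 0.13 (SE, adjusted p = 2.3e-04), and every D3T rat lay more than 2 log2 units above every control rat. Nqo1, which reduces quinones by transfer of 2 electrons, read 7.60, 7.65, 7.14 and 7.27 in D3T livers and 4.90, 4.28, 4.85 and 4.75 in control livers. That was a change of 2.72 ± 0.18 (adjusted p = 8.1e-04), with control values little above the floor; a second Nqo1 probe set was at the floor in all 8 rats. The size of the Nqo1 change, and its place below that of Akr7a3, depended on the pseudocount: with 1 in place of 16 it was 3.92, against 3.44 for Akr7a3, and with 64 it was 1.56, against 3.13. Ephx1, which hydrolyses epoxides to diols, read 11.71, 11.63, 11.51 and 11.80 in D3T livers and 10.47, 10.40, 10.54 and 10.30 in control livers, a change of 1.23 ± 0.08 (adjusted p = 7.3e-04) without overlap. These 3 calls were kept without any single rat. As deposited, without scaling, Ephx1 stood at 1938, 1687, 1388 and 2172 units in D3T livers and 1896, 2611, 1963 and 1818 in control livers, which overlap (change -0.21, adjusted p = 0.41), so its rise is seen only after scaling. Akr7a3 and Nqo1 were higher without scaling too, by 1.85 for Akr7a3 and 1.33 for Nqo1 (adjusted p = 0.0019 and 0.0010).

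The subunits of glutamate-cysteine ligase, the first enzyme of glutathione synthesis, gave smaller changes under D3T or probe sets that disagreed. The catalytic subunit Gclc read 6.42, 6.76, 6.69 and 7.30 in D3T livers, against 5.22, 5.83, 5.89 and 6.33 in control livers. Its groups did not overlap, yet the change of 0.97 ± 0.28 missed the threshold (adjusted p = 0.074, 95 percent interval 0.30 to 1.65). As deposited, without scaling, Gclc stood at 32.4, 31.6, 27.4 and 69.3 units in D3T livers. Control livers stood at 29.4, 95.7, 58.0 and 79.7 units, which overlap them (limma change -0.52, adjusted p = 0.29). The modifier subunit Gclm, read from S65555_at, was 9.005, 9.45, 9.33 and 9.47 in D3T livers and 8.71, 8.74, 8.80 and 8.75 in control livers. That rise of 0.56 ± 0.11 was called (adjusted p = 0.019), but the Gclm probe sets disagreed. rc_AI233261_i_at fell by 1.202 ± 0.26 on the log2 scale (adjusted p = 0.030), with 6.67, 7.42, 7.51 and 7.23 in D3T livers and 8.06, 8.76, 8.10 and 8.73 in control livers. S65555_g_at, at 0.22 ± 0.15, was not called (adjusted p = 0.47), so no direction is given for Gclm. As deposited S65555_at was lower in D3T livers, at 212, 253, 197 and 308 units, than in control livers, at 577, 928, 596 and 585. The S65555_at call was lost with median scaling of the arrays (adjusted p = 0.071) and without control rat 2, control rat 3 or D3T rat 3 (adjusted p 0.050 to 0.054). The rc_AI233261_i_at call was lost without any of control rats 2, 3 and 4 or D3T rats 1, 2 and 4 (adjusted p 0.053 to 0.077).

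Thioredoxin reductase and heme oxygenase gave no call under D3T. Txnrd1, the cytosolic reductase that keeps thioredoxin reduced, read 8.76, 8.81, 9.07 and 9.71 in D3T livers and 8.61, 8.99, 8.73 and 8.70 in control livers (change 0.33 ± 0.22, adjusted p = 0.45). Its second probe set, U63923_at, changed by 0.59 ± 0.21 (adjusted p = 0.14). Hmox1, which breaks heme down to biliverdin, read 6.58, 6.20, 6.49 and 6.97 in D3T livers and 6.47, 6.21, 6.48 and 6.37 in control livers, with a 95 percent interval of the change of -0.22 to 0.57. In all, 4 of the 12 probe sets rose and 1 fell, where 12.6 percent of all 8740 probe sets tested were called in either direction, and the median change over the 7 genes was 0.97 where that over all probe sets was 0. Without scaling, 2 of the 12 were higher and 6 lower, and the median over all probe sets was -0.95. Of the 8 macrophage markers measured, 4 were lower and none higher in D3T livers, with summed levels of 1641 to 1953 in D3T livers and 2395 to 2797 in control livers. Of 11 hepatocyte markers, 4 were lower (summed 52668 to 54993 in D3T livers and 57184 to 58424 in control livers), and 3 of 11 CAR and PXR markers were higher and 1 lower. The part of these marker shifts and of array brightness in the results above was not tested.

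**Figure D1:**
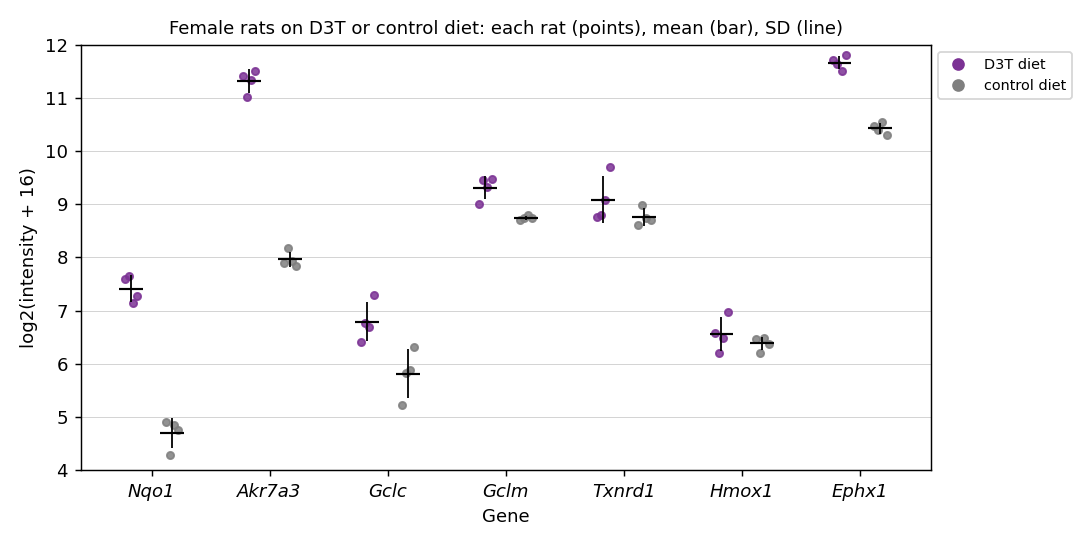
Level of the 7 measured genes (log2 of normalised intensity plus 16) in each rat on the D3T diet and on the control diet; points are rats, bars group means and lines SD. Akr7a3, Nqo1 and Ephx1 separate widely, Gclc and Gclm (S65555_at) narrowly, and Txnrd1 and Hmox1 overlap.

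PB and PCN were compared with the vehicle in each sex at 6 h, 24 h and 5 days. The 3 enzymes that act on carbonyls, quinones and epoxides rose under both drugs in both sexes, by 5 days or, for Nqo1 in PB females, at 24 h. PCN raised Gclc at 6 h and 5 days and Gclm at 5 days, and PB gave no call for these glutathione synthesis subunits. Set against each other, the drugs differed in both subunits in females at 6 h and 5 days. In males they differed only in Gclc at 5 days. Both drugs were compared with the same vehicle rats, so their changes are not independent of each other. After PB, none of the 12 probe sets was called at 6 h in males (2 at an unadjusted p under 0.05, where 0.732 percent of all probe sets were called in either direction) or in females (4 unadjusted, 2.61 percent). PB gave 3 calls in males at 24 h (2.31 percent), 3 in males at 5 days (4.91 percent), 5 in females at 24 h (4.04 percent) and 3 in females at 5 days (2.47 percent). PCN gave 1 call in males at 6 h (1.88 percent), 0 in males at 24 h by limma (6 unadjusted, 0.572 percent) and 7 in males at 5 days (4.77 percent). In females PCN gave 2 at 6 h (2.24 percent), 4 at 24 h (3.7 percent) and 11 at 5 days (8.43 percent). All of these calls were for higher levels. At 5 days the median change over the 7 genes was 0.50 for PB and 0.89 for PCN in males and 0.77 for PB and 1.57 for PCN in females, where the median over all probe sets was 0 each time. None of the 8 macrophage markers was called in any of these comparisons, while 2 to 8 of the 11 CAR and PXR markers were higher in each comparison. Of the 11 hepatocyte markers 2 were lower in PB males at 24 h and at 5 days, in PCN males at 24 h and, with 2 higher, at 5 days, and in PCN females, with 1 higher, at 24 h and at 5 days. Their summed level at 24 h in males was 62404 to 65789 with PB and 64225 to 66991 with PCN, against 66404 to 67780 with vehicle, so all PB males lay below the vehicle males. At 5 days it was 61940 to 67719 with PB and 65573 to 68108 with PCN, against 64598 to 67762 with vehicle, in males, and 62584 to 67697 with PCN, against 63101 to 64969 with vehicle, in females, all overlapping. Of 4 bile duct markers 1 was higher at 5 days in PB males, PCN males and PCN females, with sums of 117 to 182, 102 to 176 and 119 to 133, against 107 to 120 in vehicle males and 75.3 to 110 in vehicle females. The part of these markers in the results was not tested.

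**Figure D2:**
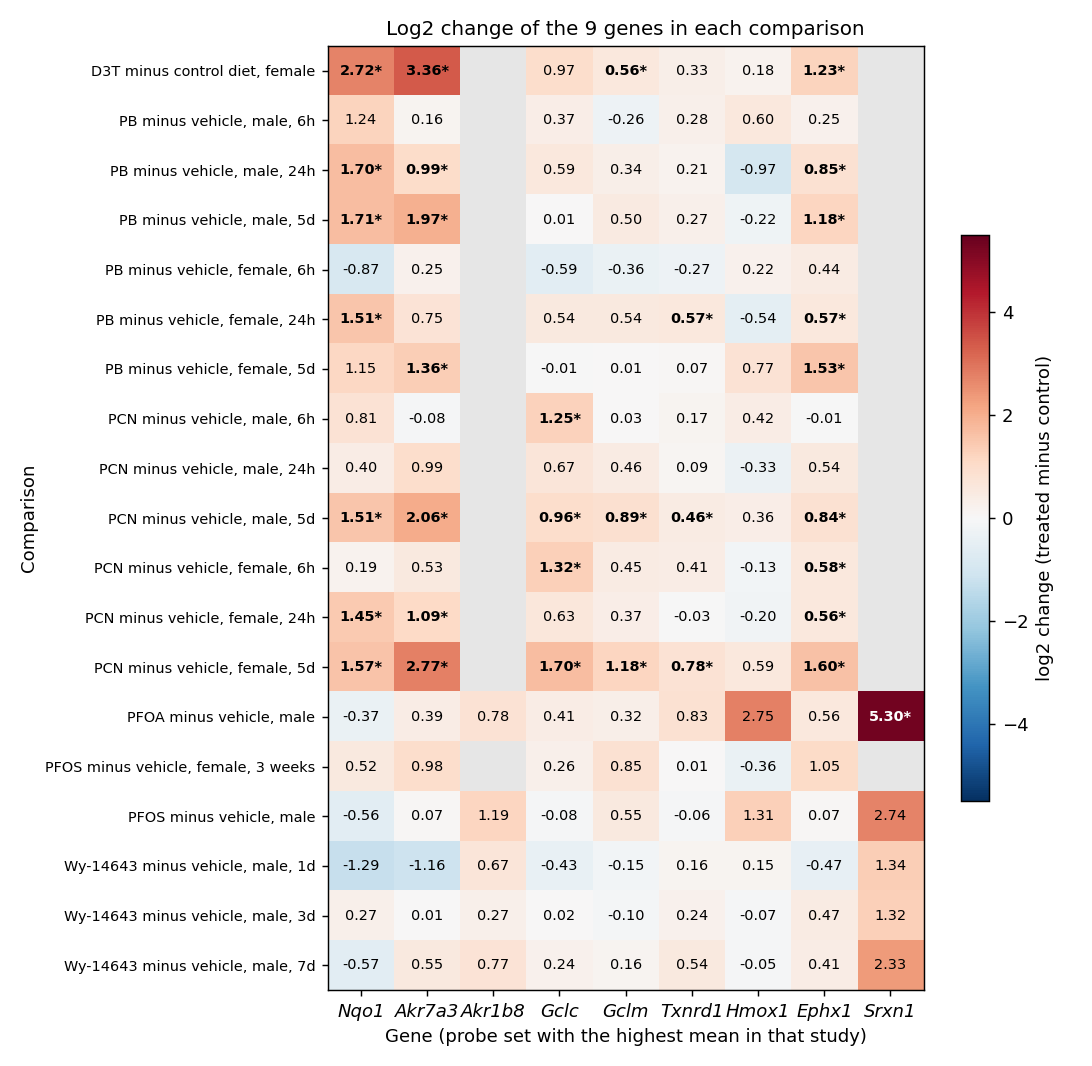
Change of each gene (log2, treated minus control) in each treatment comparison, with a mark where limma's adjusted p is under 0.05; grey cells were not measured. PCN at 5 days in females holds calls for 6 of the 7 genes measured.

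Nqo1 rose under both drugs, but its vehicle rats varied. In males at 5 days it read 9.31, 8.54, 8.97, 9.21 and 8.90 in PB livers and 7.79, 9.09, 8.70, 9.30 and 9.05 in PCN livers, against 7.34, 7.85, 6.86, 7.38 and 6.96 in vehicle livers. No PB rat overlapped the vehicle rats, and 1 PCN rat did. The change was 1.71 ± 0.40 for PB (adjusted p = 0.0034) and 1.51 ± 0.40 for PCN (adjusted p = 0.012). In females at 24 h it read 9.72, 9.03, 9.59, 9.99 and 8.93 in PB livers and 9.40, 8.94, 9.56, 9.42 and 9.64 in PCN livers, against 7.70, 8.37, 8.56, 7.20 and 7.91 in vehicle livers. Both groups lay above all vehicle rats, with changes of 1.51 ± 0.40 for PB (adjusted p = 0.013) and 1.45 ± 0.40 for PCN (adjusted p = 0.023). In females at 5 days the change was 1.57 ± 0.40 for PCN (adjusted p = 0.0046) and 1.15 ± 0.40 for PB, which missed the threshold (adjusted p = 0.14), and 1 PCN rat lay within the vehicle range. In males at 24 h PB raised it by 1.70 ± 0.40 (adjusted p = 0.0069), and PCN livers ranged from 6.11 to 9.29, with no call.

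Several of these Nqo1 calls were lost without 1 rat. The PB call in males at 24 h was lost without vehicle rat 1008 (adjusted p = 0.069), and that in females at 24 h without PB rat 4509 or vehicle rat 1509 (adjusted p 0.060 to 0.069). The PCN call in females at 24 h was lost without PCN rat 5510, vehicle rat 1506 or vehicle rat 1509 (adjusted p 0.054 to 0.089). The second Nqo1 probe set, M58495mRNA_at, was called in PB females at 24 h (1.52 ± 0.26) and in PCN females at 24 h (0.98 ± 0.26) and 5 days (0.95 ± 0.26). Its PCN call at 24 h was lost without PCN rat 5508 (adjusted p = 0.084). This probe set was dim, with deposited values at or below 0 in 33 of 89 arrays. In vehicle females it read 4.00, 4.00, 4.58, 4.00 and 4.00 at 24 h and 4.00, 4.00, 4.47, 4.00 and 4.00 at 5 days. Over the alternative settings its PB change at 24 h in females ran from 0.62 to 4.32, so the size is uncertain. Over the 18 groups the mean level of Nqo1 ran from 9.45 ± 0.46 in PB females at 24 h to 6.80 ± 1.34 in vehicle males at 6 h, and no group differed from its neighbour in that order by more than the larger of their standard deviations (SD).

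Akr7a3 had the largest change of the 7 genes at 5 days in 3 of the 4 comparisons, and Ephx1 had it after PB in females. In males it read 10.68, 9.57, 9.90, 9.90 and 10.90 in PB livers and 10.38, 10.06, 9.73, 10.17 and 11.04 in PCN livers, against 8.63, 8.31, 7.71, 8.02 and 8.41 in vehicle livers. All treated rats lay above all vehicle rats, with changes of 1.97 ± 0.29 for PB (adjusted p = 7.3e-07) and 2.06 ± 0.29 for PCN (adjusted p = 2.7e-07). In females it read 9.06, 9.06, 9.04, 8.69 and 8.28 in PB livers and 10.76, 9.67, 8.72, 10.88 and 11.14 in PCN livers, against 8.02, 7.37, 7.27, 7.48 and 7.19 in vehicle livers. PCN raised it by 2.77 ± 0.29 and PB by 1.36 ± 0.29 (adjusted p = 5.9e-12 and 0.0015), again without overlap. The PCN females spread widely, 1 of them below several PB females. At 24 h the change was called for PCN in females (1.09 ± 0.29, adjusted p = 0.016) and for PB in males (0.99 ± 0.29, adjusted p = 0.047). PCN in males had a change of 0.99 ± 0.29 at that time with no call (adjusted p = 0.11). The PCN female call was lost without PCN rat 5509 (adjusted p = 0.053). The PB male call was lost without any of PB rats 4006, 4008, 4009 and 4010 or vehicle rats 1006, 1007, 1008 and 1010 (adjusted p 0.066 to 0.17). At 6 h Akr7a3 gave no call, with changes from -0.08 to 0.53. Its group means ran from 10.28 ± 0.49 in PCN males at 5 days to 7.47 ± 0.33 in vehicle females at 5 days, and 3 of the 17 steps between neighbours exceeded their larger SD.

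Ephx1 was raised by both drugs in both sexes at 5 days, with narrow groups. In females it read 12.04, 12.18, 12.10, 12.32 and 11.81 in PB livers and 12.40, 11.81, 11.83, 12.40 and 12.37 in PCN livers, against 11.10, 10.70, 10.16, 10.13 and 10.69 in vehicle livers, with changes of 1.53 ± 0.15 and 1.60 ± 0.15. In males it read 12.47, 12.06, 11.94, 12.29 and 12.44 in PB livers and 12.08, 11.87, 11.63, 11.91 and 12.00 in PCN livers, against 10.95, 11.23, 10.97, 11.12 and 11.02 in vehicle livers, with changes of 1.18 ± 0.15 and 0.84 ± 0.15. None of these 4 groups overlapped its vehicle group, and the adjusted p ran from 4.8e-14 for PCN females to 3.8e-05 for PCN males. At 24 h the call was made for PB in males (0.85 ± 0.15), PB in females (0.57 ± 0.15) and PCN in females (0.56 ± 0.15), and at 6 h for PCN in females (0.58 ± 0.15). The PCN female call at 6 h was lost without PCN rat 5501, vehicle rat 1501 or vehicle rat 1504 (adjusted p 0.067 to 0.11), and that at 24 h without PCN rat 5507 (adjusted p = 0.052). Its group means ran from 12.24 ± 0.23 in PB males at 5 days to 10.56 ± 0.41 in vehicle females at 5 days, and 3 of the 17 steps between neighbours exceeded their larger SD.

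**Figure D3:**
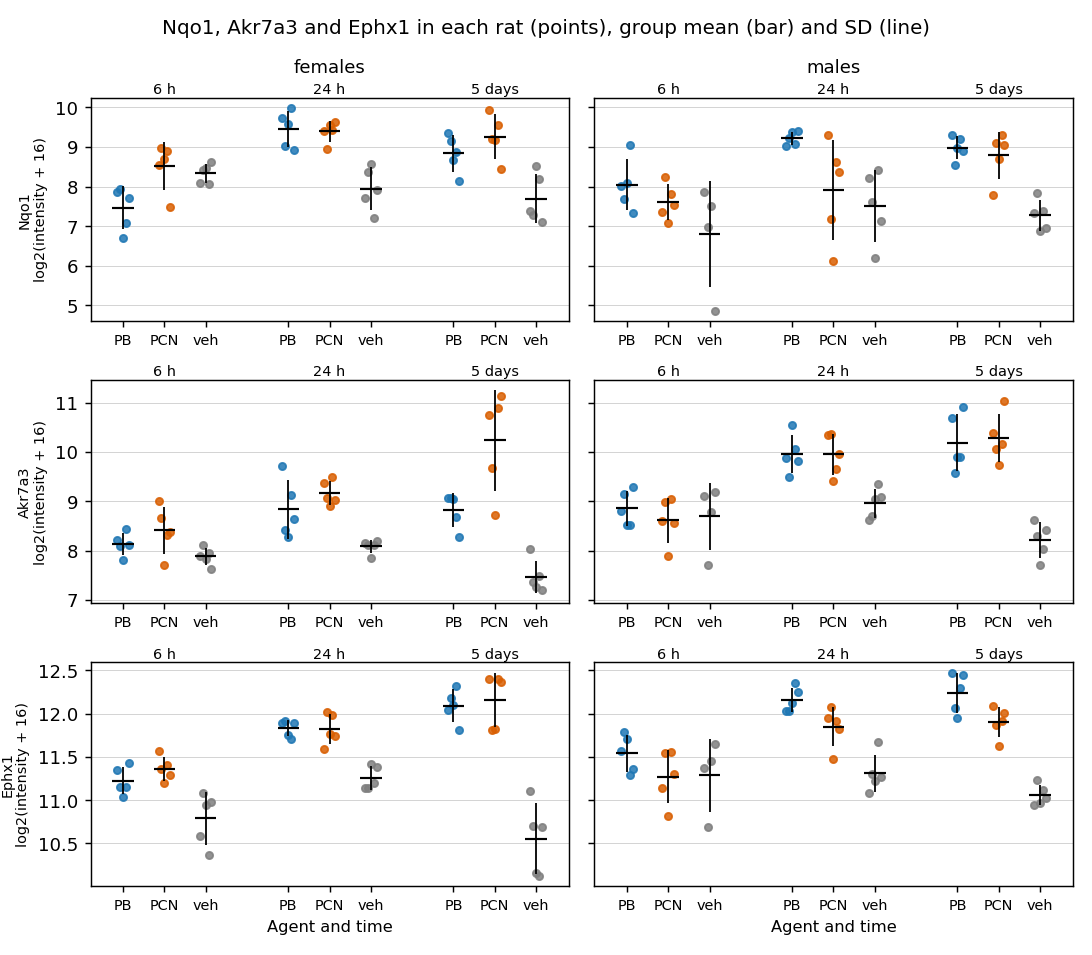
Level of Nqo1, Akr7a3 and Ephx1 (log2 of normalised intensity plus 16) in each PB, PCN and vehicle rat at 6 h, 24 h and 5 days, females left and males right; points are rats, bars group means and lines SD. At 5 days all PB and PCN rats lie above all vehicle rats of their own sex for Akr7a3 and Ephx1.

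Gclc separated the drugs at 6 h in females and at 5 days in both sexes. At 6 h in males and at 24 h in both sexes the PB and PCN rats overlapped. At 6 h in females it read 6.36, 6.43, 6.42, 6.26 and 6.79 in PB livers and 8.54, 7.65, 8.65, 8.33 and 8.66 in PCN livers, against 7.08, 7.03, 7.22, 7.14 and 6.76 in vehicle livers. All PCN rats lay above and 4 of 5 PB rats below the vehicle rats. PCN was called (1.32 ± 0.25, adjusted p = 3.3e-04) and PB was not (-0.59 ± 0.25, adjusted p = 0.29). At 6 h in males PCN livers read 6.92, 7.70, 8.03, 8.59 and 7.92, against 6.55, 6.41, 6.68 and 6.68 in 4 vehicle livers, a change of 1.25 ± 0.27 without overlap (adjusted p = 0.0033). At 24 h no Gclc change was called under either drug, the 4 changes lying between 0.54 and 0.67. At 5 days in females it read 5.76, 5.87, 6.88, 5.90 and 6.75 in PB livers and 7.94, 7.37, 7.03, 8.70 and 8.70 in PCN livers, against 5.93, 6.69, 6.53, 5.89 and 6.17 in vehicle livers. PCN again stood above every vehicle rat (1.70 ± 0.25, adjusted p = 3.3e-07), while PB differed from the vehicle by -0.01 ± 0.25 (95 percent interval -0.52 to 0.49). In males at 5 days PCN raised it by 0.96 ± 0.25 (adjusted p = 0.011), a call lost without vehicle rat 1011 (adjusted p = 0.071), and PB changed it by 0.01 ± 0.25 (95 percent interval -0.50 to 0.52). Its group means ran from 8.36 ± 0.42 in PCN females at 6 h to 6.20 ± 0.18 in vehicle females at 24 h, and 1 of the 17 steps between neighbours exceeded its larger SD.

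Gclm, whose subunit raises the efficiency of the Gclc enzyme, was called after 5 days of PCN. In females it read 7.37, 7.66, 7.37, 7.05 and 7.05 in PB livers and 8.91, 8.00, 7.07, 9.25 and 9.11 in PCN livers, against 7.59, 7.79, 6.88, 7.22 and 6.98 in vehicle livers. Among PCN females 4 lay above all vehicle rats and 1 within them, a change of 1.18 ± 0.23 (adjusted p = 8.1e-05). In males at 5 days PCN livers read 8.90, 8.80, 8.98, 9.01 and 9.37 and PB livers 8.44, 8.56, 8.87, 8.73 and 8.51, against 8.37, 7.92, 8.48, 7.73 and 8.09 in vehicle livers. PCN did not overlap the vehicle (0.89 ± 0.23, adjusted p = 0.0071), and PB, at 0.50 ± 0.23, was not called (adjusted p = 0.22). In PCN females at 5 days all 3 Gclm probe sets rose, the others by 1.05 ± 0.24 and 1.02 ± 0.19. In PCN males S65555_at rose by 0.62 ± 0.19, a call lost without any of PCN rats 5011, 5013 and 5015 or vehicle rats 1012, 1014 and 1015 (adjusted p 0.055 to 0.17). Its group means ran from 9.01 ± 0.22 in PCN males at 5 days to 7.22 ± 0.34 in PB females at 6 h, and 2 of the 17 steps between neighbours exceeded their larger SD.

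Txnrd1 changed by less than 1 log2 unit in all 12 comparisons with the vehicle, in its brighter probe set. In females at 5 days it read 9.38, 9.38, 9.48, 9.02 and 9.31 in PB livers and 10.12, 9.62, 9.63, 10.27 and 10.46 in PCN livers, against 9.21, 9.33, 8.98, 9.41 and 9.27 in vehicle livers. PCN raised it by 0.78 ± 0.13 (adjusted p = 4.8e-06), and PB differed by 0.07 ± 0.13 (95 percent interval -0.19 to 0.33). At 24 h in females the order was the other way: it read 9.71, 9.48, 9.65, 9.88 and 9.53 in PB livers and 9.16, 8.52, 9.31, 9.32 and 8.95 in PCN livers, against 9.01, 9.07, 9.22, 8.96 and 9.15 in vehicle livers. PB was called (0.57 ± 0.13, adjusted p = 0.0028) and PCN was not (-0.03 ± 0.13). In males only PCN at 5 days was called (0.46 ± 0.13, adjusted p = 0.020), a call lost without PCN rat 5015 or vehicle rat 1012 (adjusted p 0.061 to 0.10). U63923_at rose in PCN females at 5 days (1.010 ± 0.19) and in PB females at 24 h (0.63 ± 0.19). Its PB call was lost without any of PB rats 4506, 4508 and 4509 or vehicle rats 1507, 1508, 1509 and 1510 (adjusted p 0.057 to 0.15). Group means of the brighter probe set ran from 10.02 ± 0.38 in PCN females at 5 days to 9.05 ± 0.33 in PCN females at 24 h, with no step between neighbours above their larger SD.

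Hmox1 gave no call under either drug in the probe set it is read from. Its changes there ran from -0.97 in PB males at 24 h to 0.77 in PB females at 5 days. In females at 5 days it read 8.67, 8.26, 8.23, 7.85 and 8.58 in PB livers and 8.27, 7.86, 7.61, 8.56 and 8.35 in PCN livers, against 7.90, 7.67, 6.78, 7.54 and 7.82 in vehicle livers, with adjusted p = 0.25 for PB. The dimmer J02722cds_at was called in PB females (0.91 ± 0.24) and PCN females (0.77 ± 0.24) at 5 days. The PB call was lost without PB rat 4511, PB rat 4515 or vehicle rat 1513 (adjusted p 0.062 to 0.10). The PCN call was lost without PCN rat 5511, 5514 or 5515 or vehicle rat 1512 or 1513 (adjusted p 0.053 to 0.12). Group means of Hmox1 ran from 8.32 ± 0.32 in PB females at 5 days to 6.00 ± 0.79 in PB males at 24 h, with no step between neighbours above their larger SD.

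**Figure D4:**
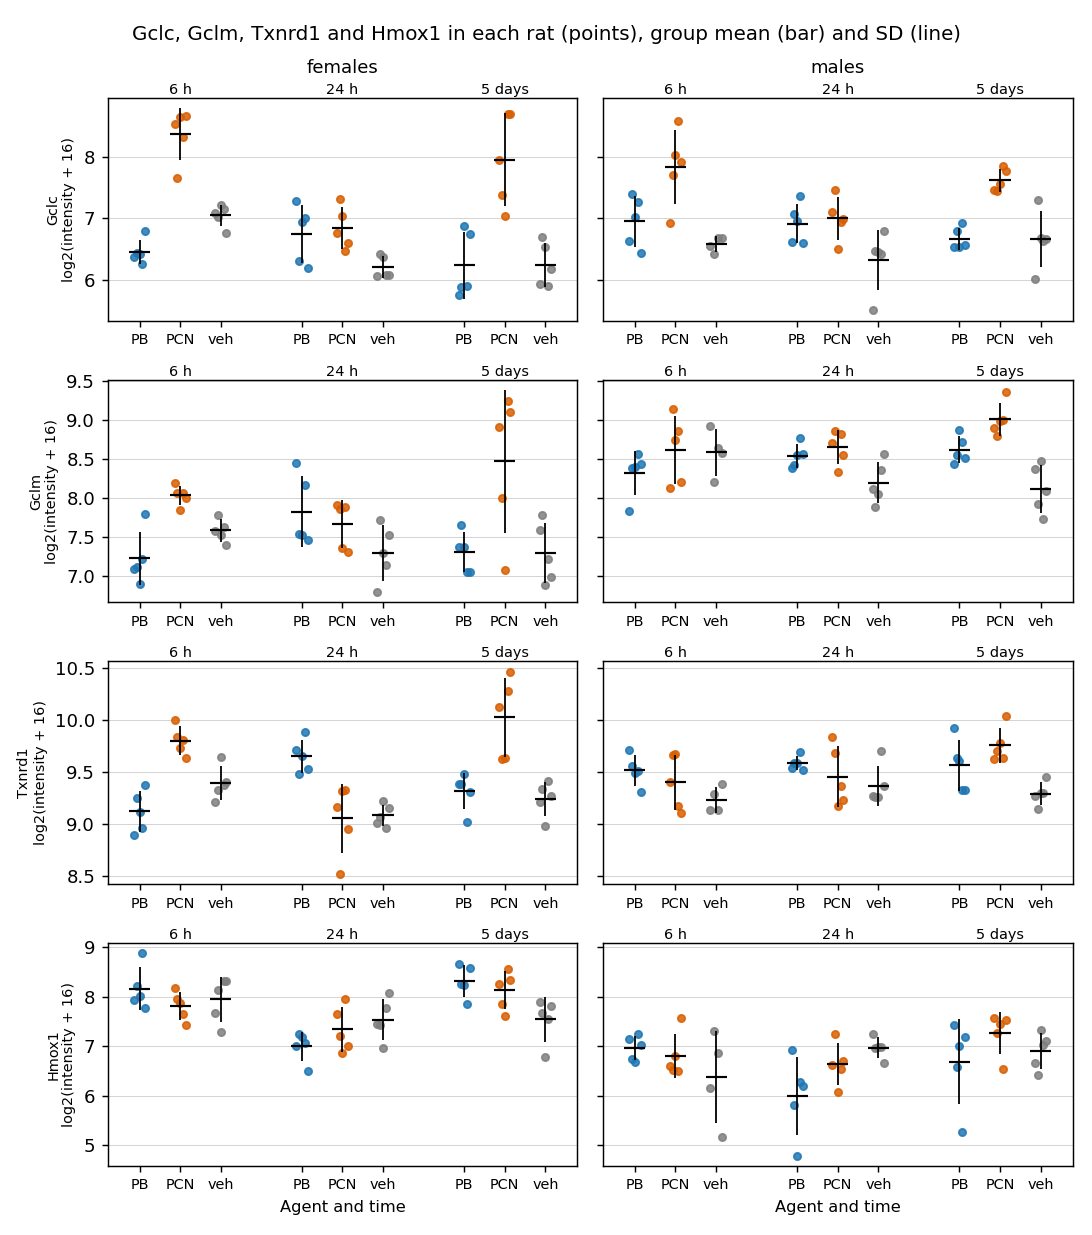
Level of Gclc, Gclm, Txnrd1 and Hmox1 (log2 of normalised intensity plus 16) in each PB, PCN and vehicle rat at 6 h, 24 h and 5 days, females left and males right; points are rats, bars group means and lines SD. For Gclc, PCN rats stand above PB rats at 5 days in both sexes and at 6 h in females.

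Some of these calls depended on which rats entered the fit. The main fit estimated the spread over all 18 groups. With only the rats of the comparison itself in the fit, calls of the probe sets that genes are read from were lost for Nqo1 at 24 h under PB in both sexes and at 5 days under PCN in males, Akr7a3 under PB in males at 24 h, Ephx1 under PCN in females at 6 h, Gclc under PCN in males at 6 h and 5 days and Gclm under PCN in females at 5 days. The adjusted p was then between 0.050 and 0.20. With the displaced array of rat 1003 kept, 7 of the 8 Ephx1 calls (all but PCN females at 5 days) and 3 of the 6 Akr7a3 calls were lost, and Nqo1 after PB and PCN and Ephx1 after PB gained a call in males at 6 h. A pseudocount of 1 also ended the Akr7a3 call under PB in males at 24 h (adjusted p = 0.052) and both J02722cds_at calls of Hmox1. Median scaling of the arrays ended the Ephx1 call under PCN in females at 6 h (adjusted p = 0.13).

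The drugs were then set against each other in the same fit, PB minus PCN. In males no probe set was called at 6 h (2 unadjusted, 0.355 percent of all probe sets called) or 24 h (3 unadjusted, 1.19 percent), and at 5 days Gclc was (3.08 percent). In females 6 were called at 6 h (6.95 percent), 1 at 24 h (4.47 percent) and 7 at 5 days (6.91 percent). Gclc was lower after PB than after PCN in females at 6 h (-1.91 ± 0.25, adjusted p = 5.7e-08) and 5 days (-1.72 ± 0.25, adjusted p = 5.5e-07) and in males at 5 days (-0.95 ± 0.25, adjusted p = 0.019). PB and PCN rats did not overlap in any of these 3 comparisons, and the male call was lost without PCN rat 5014 or 5015 (adjusted p = 0.052). Gclm was lower after PB in females at 6 h (-0.81 ± 0.23, adjusted p = 0.014) and 5 days (-1.17 ± 0.23, adjusted p = 1.7e-04), in all 3 probe sets at both times. At 6 h the rats did not overlap, and the call was lost without PB rat 4503 (adjusted p = 0.055), and that of S65555_at in 8 of 10 fits without 1 rat (adjusted p up to 0.13). Txnrd1 was lower after PB in females at 6 h (-0.68 ± 0.13) and 5 days (-0.71 ± 0.13) and higher at 24 h (0.60 ± 0.13), each without overlap (adjusted p = 1.5e-04, 7.1e-05 and 0.0024). Akr7a3 was lower after PB in females at 5 days by 1.41 ± 0.29 on the log2 scale (adjusted p = 4.8e-04), although 1 PCN rat lay within the PB range. Ephx1 was called between the drugs in no comparison, and in females at 5 days the interval of its difference was -0.37 to 0.23. For Nqo1 at 5 days the interval was -1.23 to 0.38 in females and -0.60 to 1.00 in males.

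The change after 5 daily doses was compared with that 6 h after 1 dose. The 5-day livers were taken 24 h after the final dose, so number of doses and hours since dosing cannot be told apart. Each change is against the vehicle rats of its own time. Of 48 probe set comparisons 8 were called, all with the larger change at 5 days, where 0.584 percent of all probe sets were called for PB in males, 2.44 for PB in females, 0.698 for PCN in males and 2.31 for PCN in females. Ephx1 had the larger change at 5 days in all 4, by 0.86 ± 0.22 for PCN in males to 1.10 ± 0.21 for PB in females. Akr7a3 had it for PB in males (1.82 ± 0.42) and for PCN in males (2.14 ± 0.42) and females (2.24 ± 0.41). Leaving out 1 rat at a time ended the Akr7a3 call for PB in males in 4 of 19 fits (without PB rat 4011 or 4015 or vehicle rat 1001 or 1005), and the Ephx1 call for PB in males in 3 (without PB rat 4011 or vehicle rat 1004 or 1005) and for PCN in males in 12, with an adjusted p up to 0.14. Nqo1 had it for PB in females (2.01 ± 0.57, adjusted p = 0.035), where its PB rats at 6 h lay below all vehicle rats without a call (-0.87). That call was lost in 11 of 20 fits without 1 rat, with an adjusted p up to 0.10. For Gclc under PCN the change at 5 days minus that at 6 h had an interval of -0.33 to 1.10 in females and -1.03 to 0.44 in males.

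No drug effect was shown to differ between the sexes. Over 72 probe set comparisons limma called 0 (10 at an unadjusted p under 0.05), where 1.02, 0.0114 and 0.103 percent of all probe sets were called for PB at 6 h, 24 h and 5 days, and 0.0458, 0.0229 and 0.606 percent for PCN. The nearest were the PB effect on Nqo1 at 6 h, -0.87 in females and 1.24 in males (difference -2.11 ± 0.59, adjusted p = 0.054; the male change was 0.59 without vehicle rat 1005), and the PCN effect on Ephx1 at 5 days, 1.60 in females and 0.84 in males (difference 0.76 ± 0.21, adjusted p = 0.066).

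Vehicle females and males did differ. Of the 12 probe sets 6 were called at 6 h (6.49 percent of all probe sets), 2 at 24 h (5.03 percent) and 3 at 5 days (5.3 percent), 2 of these 11 higher and 9 lower in females. Gclm was lower in females at each time. At 6 h it read 7.58, 7.79, 7.53, 7.62 and 7.39 in females and 8.93, 8.201, 8.64 and 8.58 in males, without overlap. Its difference was -1.003 ± 0.24 at 6 h, -0.91 ± 0.23 at 24 h and -0.83 ± 0.23 at 5 days (adjusted p = 0.0030, 0.0059 and 0.015). Ephx1 was lower in females at 6 h (-0.50 ± 0.16) and 5 days (-0.50 ± 0.15), with overlapping rats. Without any 1 of 5 rats at 6 h and of 4 at 5 days the Ephx1 call was lost (adjusted p up to 0.26), and that of Gclm at 5 days without female 1513, female 1515 or male 1013 (adjusted p up to 0.063). At 6 h Nqo1 was higher in females (8.08, 8.42, 8.48, 8.05 and 8.62 in females and 7.86, 6.97, 7.50 and 4.86 in males, difference 1.53 ± 0.43). Hmox1 was higher in females at that time as well (7.67, 8.15, 7.28, 8.32 and 8.33 in females and 6.16, 7.31, 6.86 and 5.17 in males, difference 1.57 ± 0.32). In both genes male 1005 was the lowest. Without it the Nqo1 difference was 0.88 and no longer called (adjusted p = 0.32), while that of Hmox1 was still called. At 24 h and 5 days neither gene was called, with differences of 0.43 and 0.41 for Nqo1 and 0.57 and 0.63 for Hmox1.

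PFOA was followed in males next to PFOS, at doses that differ, with 1 vehicle group for both. The only call was for Srxn1, the sulfiredoxin that repairs overoxidised peroxiredoxins. It read 10.18, 11.46 and 11.52 in PFOA livers and 8.26, 8.28 and 8.94 in PFOS livers, against 7.58, 4.00 and 5.67 in vehicle livers. PFOA changed it by 5.30 ± 0.89 (adjusted p = 0.023) and PFOS by 2.74 ± 0.89 (adjusted p = 0.28). Both groups lay above all vehicle rats, 1 of which was at the floor, so the size of the change is uncertain. The PFOA call was lost without PFOA rat R95471, PFOA rat R95472 or vehicle rat R95436 (adjusted p 0.067 to 0.077). It was also lost with only the groups compared in the fit (adjusted p = 0.069) and with a pseudocount of 1 (adjusted p = 0.082). A second Srxn1 probe set changed by 2.53 ± 0.60 with PFOA, without overlap (adjusted p = 0.060), and by 0.34 ± 0.60 with PFOS. The third was at the floor in all 9 rats.

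Hmox1 varied most among the treated males. It read 9.48, 11.45 and 12.31 in PFOA livers and 7.98, 10.12 and 10.82 in PFOS livers, against 8.47, 8.57 and 7.95 in vehicle livers. The PFOA change was 2.75 ± 0.94 and the PFOS change 1.31 ± 0.94, neither called (adjusted p = 0.16 and 0.68), although no PFOA rat overlapped the vehicle rats. Txnrd1 read 11.06, 11.54 and 11.75 in PFOA livers, 10.20, 10.96 and 10.52 in PFOS livers and 10.52, 10.39 and 10.95 in vehicle livers, with a PFOA change of 0.83 ± 0.27 (adjusted p = 0.14). Gclm read 10.67, 10.84 and 10.94 in PFOA livers, 11.14, 11.004 and 11.01 in PFOS livers and 10.37, 10.36 and 10.77 in vehicle livers, with a PFOS change of 0.55 ± 0.13 (adjusted p = 0.14). PFOS rats lay above all vehicle rats for Gclm and below them all for Nqo1. The share of all probe sets that separate from the vehicle in this study was not counted. These orders, and those of Srxn1 and Hmox1 above, are therefore no result by themselves. Nqo1 changed by -0.37 ± 0.27 with PFOA and -0.56 ± 0.27 with PFOS, Akr7a3 by 0.39 ± 0.30 and 0.07 ± 0.30, Ephx1 by 0.56 ± 0.26 and 0.07 ± 0.26 and Gclc by 0.41 ± 0.29 and -0.08 ± 0.29, none called. Akr1b8, an aldo-keto reductase, was at or near the floor in every rat of this and the Wy-14643 study, between 4.00 and 6.18. In all, 1 of 13 probe sets was called with PFOA, where 6.05 percent of all 31042 probe sets were called, and 0 with PFOS (2 unadjusted, 0.461 percent). These counts lie near the shares over all probe sets and are no result about the 9 genes. Beside these values, 10 of 11 PPARA markers were higher with PFOA and 3 with PFOS, 1 of 13 macrophage markers was lower with each, and 4 of 10 CAR and PXR markers were higher and 1 lower with PFOA. The summed macrophage level was 7015 to 11227 with PFOA, 8867 to 12566 with PFOS and 11988 to 16658 with vehicle, and its part in the results was not tested.

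In females after 21 days of PFOS limma called 0 of the 12 probe sets, 1 at an unadjusted p under 0.05, and 0 percent of all 8740 probe sets, with 2 rats a group. Akr7a3 read 8.39 and 9.08 in PFOS livers and 7.82 and 7.69 in vehicle livers (change 0.98 ± 0.32, 95 percent interval -0.16 to 2.12). Ephx1 read 11.73 and 11.92 in PFOS livers and 11.07 and 10.49 in vehicle livers (change 1.05 ± 0.27, 95 percent interval 0.07 to 2.02). Gclm read 7.35 and 7.93 in PFOS livers and 6.95 and 6.64 in vehicle livers, and Nqo1 9.06 and 8.34 in PFOS livers and 8.04 and 8.33 in vehicle livers. In these 4 genes both PFOS rats lay above both vehicle rats, and in Gclc, Txnrd1 and Hmox1 the rats overlapped. The share of all probe sets that separate in this way was not counted. With 2 rats a group, this separation is therefore no result about these genes.

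Wy-14643 left most of the 9 genes without a call. At 1 day none of 11 probe sets was called by limma (2 unadjusted, 11.5 percent of all 15866 probe sets called), at 3 days none (0 unadjusted, 10.8 percent) and at 7 days 2 (4 unadjusted, 13.1 percent). The count at 7 days lies near the share over all probe sets and is no result about the 9 genes. Both calls at 7 days were for the dimmer probe set of a gene. Txnrd1, in that probe set, read 9.66, 10.44 and 9.59 in Wy-14643 livers and 9.12, 9.32 and 8.98 in vehicle livers at 7 days, a change of 0.76 ± 0.20 (adjusted p = 0.023). Gclc, in its dimmer probe set, read 9.70, 9.96 and 9.42 in Wy-14643 livers and 9.16, 9.12 and 8.77 in vehicle livers, a change of 0.67 ± 0.19 (adjusted p = 0.036). Neither overlapped its vehicle group. Their brighter probe sets changed by 0.54 ± 0.20 for Txnrd1 (adjusted p = 0.10) and 0.24 ± 0.22 for Gclc (adjusted p = 0.58). The Txnrd1 call was lost without Wy-14643 rat 13 or vehicle rat 33 or 35 (adjusted p 0.053 to 0.085), and the Gclc call without Wy-14643 rat 12 or 13 or vehicle rat 33, 34 or 35 (adjusted p 0.052 to 0.14). With only the 6 rats of 7 days in the fit both were lost (adjusted p = 0.21 and 0.13). Srxn1 read 6.92, 8.91 and 7.43 in Wy-14643 livers and 6.66, 5.61 and 4.00 in vehicle livers at 7 days, without overlap (change 2.33 ± 0.78, adjusted p = 0.068).

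At 1 day Nqo1, Akr7a3 and Gclc lay below every vehicle rat without a call. Nqo1 read 9.41, 7.76 and 9.52 in Wy-14643 livers and 9.76, 10.57 and 10.21 in vehicle livers (change -1.29 ± 0.57, adjusted p = 0.19). Akr7a3 read 9.99, 9.33 and 9.07 in Wy-14643 livers and 10.82, 10.86 and 10.19 in vehicle livers (change -1.16 ± 0.50, adjusted p = 0.18). Gclc read 10.07, 10.07 and 9.91 in Wy-14643 livers and 10.68, 10.44 and 10.22 in vehicle livers (change -0.43 ± 0.22, adjusted p = 0.26). At 3 days Srxn1 (change 1.32), Ephx1 (0.47) and Txnrd1 in its brighter probe set (0.24) lay above every vehicle rat, also without a call. The share of all probe sets that separate in these ways was not counted, so neither order is a result about these genes. The Wy-14643 arrays were all brighter than the vehicle arrays at 1 and 3 days, with mean intensities of 445.6 to 558.7 units on Wy-14643 arrays and 360.9 to 425.6 on vehicle arrays at 1 day, and 528.6 to 609.2 on Wy-14643 arrays and 314.5 to 445.6 on vehicle arrays at 3 days. Without scaling the 1-day Gclc change was -0.05, and at 3 days 6 of the 11 probe sets were called higher, where none was with scaling. At 7 days the Wy-14643 rats spread widely in Nqo1 and Akr7a3, 8.09, 10.43 and 10.14 for Nqo1 and 9.97, 12.55 and 11.38 for Akr7a3. Ephx1 changed by -0.47 ± 0.23 at 1 day, 0.47 ± 0.23 at 3 days and 0.41 ± 0.23 at 7 days, Gclm by -0.15, -0.10 and 0.16 and Hmox1 by 0.15, -0.07 and -0.05, none called. The change at 7 days minus that at 1 day was called for 0 of 11 probe sets (4 unadjusted, 1.87 percent of all), the largest being 1.71 ± 0.71 for Akr7a3 (adjusted p = 0.27). At 7 days 11 of 11 PPARA markers were higher. Of 11 macrophage markers 4 were lower then (summed 3599 to 3898 in Wy-14643 livers and 5301 to 8940 in vehicle livers), and 2 of 3 blood cell markers were lower; their part in the results was not tested.

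**Figure D5:**
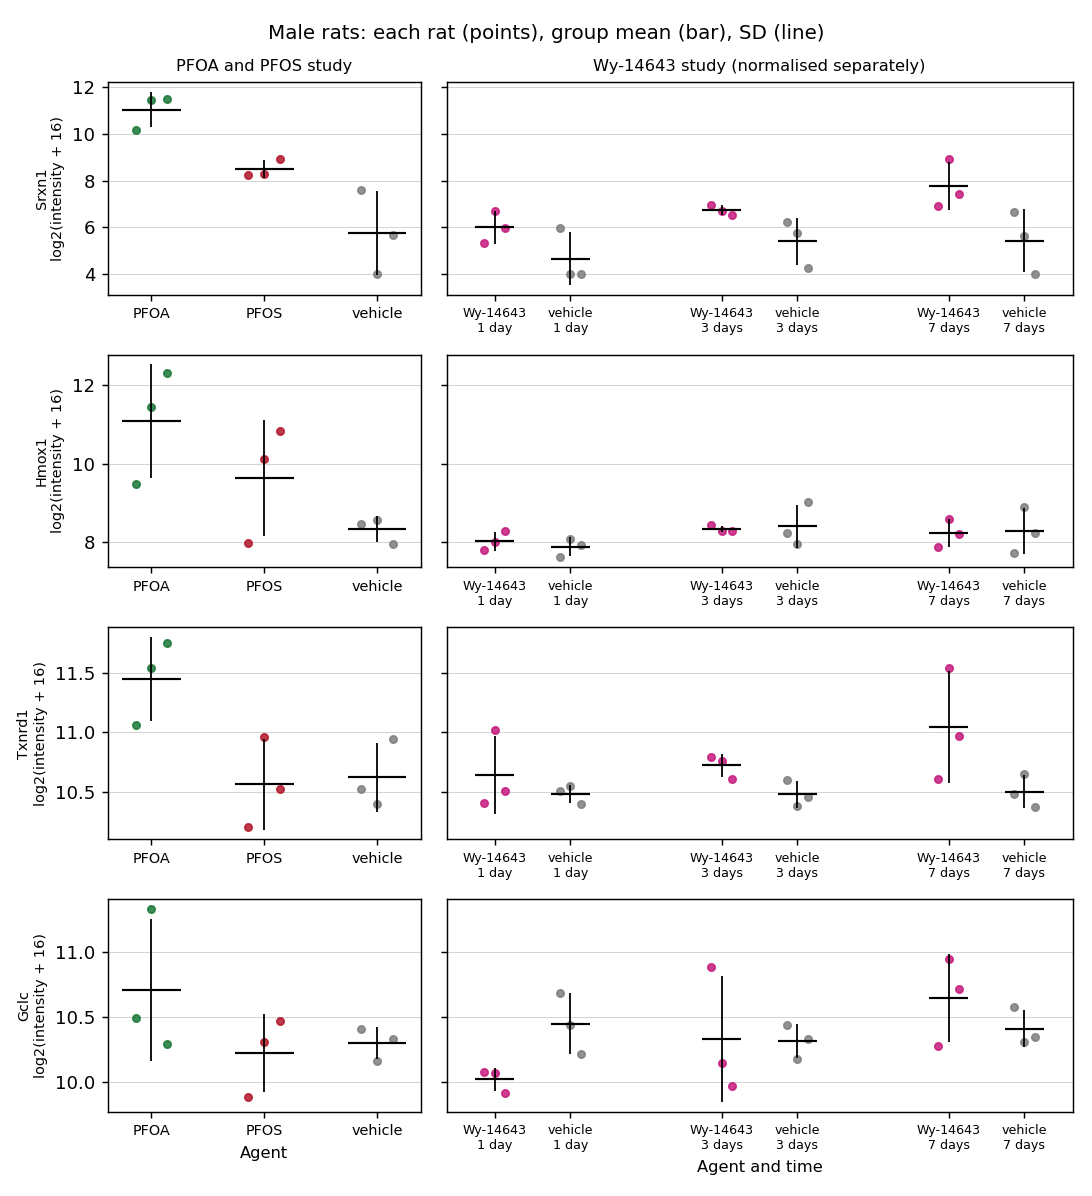
Level of Srxn1, Hmox1, Txnrd1 and Gclc (log2 of normalised intensity plus 16) in each PFOA, PFOS and vehicle male and in each Wy-14643 and vehicle male at 1, 3 and 7 days; points are rats, bars group means and lines SD. Srxn1 lies above its vehicle rats in all PFOA and all PFOS males and in all Wy-14643 males at 3 and 7 days. Of these only the PFOA change was called, and some vehicle rats were at the floor. The share of all probe sets that separate in this way was not counted.

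The other genes of the NRF2 pathway were read from a list of 38, of which 21 were measured with PB, PCN, D3T and 3 weeks of PFOS, 32 with PFOA and PFOS in males and 28 with Wy-14643. D3T raised 8 of the 21 and lowered 0, where 12.6 percent of all probe sets were called in either direction, with a median change of 0.67 where that over all probe sets was 0. These D3T changes are with the arrays scaled. Without scaling the median over all probe sets was -0.95, and the genes of this list were not read without scaling. The largest changes were in the glutathione transferases Gsta3 (5.21 ± 0.21) and Gstp1 (4.79 ± 0.32), the glutathione peroxidase Gpx2 (2.21 ± 0.45) and the glutathione reductase Gsr (1.30 ± 0.25). PB raised 0, 4 and 11 of the 21 in males at 6 h, 24 h and 5 days and 0, 7 and 6 in females, and PCN raised 1, 2 and 9 in males and 4, 7 and 12 in females. Over all probe sets at these times 0.732, 2.31 and 4.91 percent were called for PB in males and 2.61, 4.04 and 2.47 percent in females, and 1.88, 0.572 and 4.77 percent for PCN in males and 2.24, 3.7 and 8.43 percent in females. Their median change at 5 days was 0.46 for PB and 0.42 for PCN in males, and 0.14 for PB and 0.41 for PCN in females. The only one lowered was Nfe2l2, the NRF2 gene, in PB females at 6 h (-0.85 ± 0.21). At 5 days the largest changes after PB in males were in Gsta3 (3.76 ± 0.35), the exporter Abcc3 (2.54 ± 0.26), the retinaldehyde dehydrogenase Aldh1a1 (2.46 ± 0.25) and Gsr (1.46 ± 0.34). After PCN in females they were in Gsta3 (2.69 ± 0.35), Abcc3 (2.37 ± 0.26), Gsr (2.23 ± 0.34) and Gstm1 (2.06 ± 0.14). The 12 genes called there include Ggt1, which was at the floor in all vehicle rats and little above it after PCN. PFOA raised 5 of 32, where 6.05 percent of all probe sets were called, among them Abcc3, which was at the floor in all vehicle rats, Aldh1a1 (2.53 ± 0.18), Gsta3 (2.18 ± 0.35) and the biliverdin reductase Blvrb (0.91 ± 0.19). PFOS raised 0 of 32 in males (0.461 percent of all) and 0 of 21 in females (0 percent of all). Wy-14643 raised 3 and lowered 3 of 28 at 1 day, the lowered ones including Ptgr1 (-1.16 ± 0.21) and Osgin1 (-1.10 ± 0.23), and raised 4 at 3 days and 5 at 7 days, led at 7 days by Aldh1a1 (4.22 ± 0.25), the malic enzyme Me1 (3.61 ± 0.50), Adh7 (2.54 ± 0.38) and Cbr1 (1.35 ± 0.13). Over all probe sets 11.5, 10.8 and 13.1 percent were called with Wy-14643 at 1, 3 and 7 days, so the counts of 4 and 5 of 28 at 3 and 7 days lie near that background and are no result about these genes. Several of these genes are also known targets of CAR, PXR or PPARA.

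Across the 18 group means of the PB and PCN study, Akr7a3 and Ephx1 were the most alike of the 7 genes (Pearson r = 0.88), and Gclm and Hmox1 the least (r = -0.64). Akr7a3 and Gclm had r = 0.74, Gclc and Txnrd1 0.73, Nqo1 and Ephx1 0.71 and Gclc and Gclm 0.52. These points share sexes, times and vehicle rats, so the values describe the groups only. Different probe sets of 1 gene had r between 0.91 and 0.99 over the same means. Among 2679 other probe sets whose highest group mean was at least 7, those most like Nqo1 were Gsta3 (0.89), Ugt2b1 (0.89) and Psma7 (0.87). Those most like Akr7a3 were Pgrmc1 (0.95), Gstm1 (0.93) and Ssr4 (0.90), and most like Ephx1 were Gstm1 (0.89), Aldh1l1 (0.89) and Pgrmc1 (0.88). For Gclm they were Cyp3a18 (0.92), C8h11orf54 (0.90) and Cyp2c11 (0.87). For Gclc they were Mdm2 (0.87), Bud31 (0.87) and Dapk3 (0.85). For Txnrd1 they were Psmd1 (0.85), Ywhag (0.81) and Psmd2 (0.80), and for Hmox1 Pcsk6 (0.93), Gtf2f2 (0.89) and Kiaa0930 (0.87).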

How the data were processed

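The 129 arrays of whole rat liver were grouped by their labels into 31 groups. Per the labels, 1-colour Affymetrix arrays of 3 designs were used, 1 rat each. The authors deposited linear intensity values per probe set, some below 0. How those were made is not given in the sources used here. Probe sets were named through the platforms' annotation.

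Each study was quantile normalised on its own, except the 3-week PFOS study, whose array medians differed by less than 0.5 log2 units. Deposited values below 0 were set to 0, 16 was added and log2 taken, and control probe sets were left out. Group means were fitted in R 4.3.3 with limma 3.58.1 over all groups of a study, and p-values were two-sided. They were adjusted by Benjamini-Hochberg over 8740, 31042 or 15866 probe sets; a call is an adjusted p under 0.05. The fit was tested on simulated data. The probe set with the highest mean in a study stood for its gene, other probe sets being named where they were called or disagreed; of other NRF2 genes at most 4 called ones with the largest changes were named per comparison, and the 3 genes most like each of the 7 in the PB and PCN study.

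The members and gene lists were chosen with earlier results of these data known. Alternatives were pseudocounts of 1 and 64, median scaling, leaving out the lowest 33.3 percent of probe sets, fitting only the groups compared, leaving out each rat, keeping rat 1003 and, for D3T, a replicate block. The same leaving out of rats for differences between drugs, times and vehicle sexes, and unscaled values where array brightness did not overlap between groups, were chosen after seeing the data. The labels give separate rats; p-values measure the spread between them. Figures were drawn with matplotlib 3.10.9.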

Additional observations from a re-analysis of the deposited data

Results flagged for a closer look

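In 5 of 140 sets of 4 or 5 rats (gene by group), 1 rat stood apart from the others by Dixon's test, which chance alone flags in about 1 set in 20. For Nqo1 in PCN females at 6 h rat 5505 was at 7.48, below the others at 8.56 to 8.96. Akr7a3 in vehicle females at 24 h was at 7.84 in rat 1508 and at 8.11 to 8.19 in the others. Gclm in PB males at 6 h was at 7.83 in rat 4001 and at 8.38 to 8.56 in the others. Txnrd1 in vehicle males at 24 h was at 9.70 in rat 1009 and at 9.25 to 9.36 in the others. Hmox1 in PCN males at 6 h was at 7.56 in rat 5005 and at 6.51 to 6.80 in the others.

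The effect at 5 days differed from that at 6 h, by the test of the difference itself, in 8 cases. That test cannot tell number of doses and hours since dosing apart. For Akr7a3 the difference was 1.82 for PB in males, 2.14 for PCN in males and 2.24 for PCN in females. For Ephx1 it was 0.93 for PB in males, 1.10 for PB in females, 0.86 for PCN in males and 1.03 for PCN in females. For Nqo1 it was 2.01 for PB in females. As given above, some fits without 1 rat lost the Nqo1 call, the Akr7a3 call for PB in males and both Ephx1 calls in males.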

How the results depend on the processing

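Among the alternatives that keep the arrays scaled, no called value changed direction. Over the treatment comparisons, calls of single probe sets were kept in 383 fits and lost in 64 when 1 rat was left out. In the other settings 44 were kept and 0 lost without the dimmest probe sets, 44 and 3 with median scaling, 22 and 20 with only the groups compared, 43 and 4 with a pseudocount of 1, 47 and 0 with a pseudocount of 64, and 25 and 14 with rat 1003 kept. For the 34 called differences between drugs, times and vehicle sexes, 354 fits without 1 rat kept the call and 56 lost it.

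The number of called probe sets moved by over 1.5 times as follows. With rat 1003 kept it was 2 for PB and 2 for PCN in males at 6 h, 1 for PB in males at 24 h, 0 for PB in females at 5 days, 1 for PCN in females at 6 h and 1 at 24 h, 1 for the differences between sexes and 1 for those between times. With only the groups compared it was 1 for PB in males and 2 in females at 24 h, 0 for PCN in males at 6 h, 4 for PCN in males and 6 in females at 5 days, 0 for PFOA and 0 for Wy-14643 at 7 days. With median scaling it was 2 for PCN in males at 24 h, 1 for PCN in females at 6 h and 1 for Wy-14643 at 7 days. With a pseudocount of 1 it was 1 for the differences between sexes and 0 for PFOA, and without the dimmest probe sets 1 and 2. Without 1 rat it was 1 to 4 for PB in males and 3 to 6 in females at 24 h, 0 to 1 for PCN in males at 24 h, 1 to 3 for PCN in females at 6 h, 3 to 5 for D3T, 0 to 2 for PFOA and 0 to 2 for Wy-14643 at 7 days. Fits with fewer groups have fewer samples behind the spread. Why the counts moved was not tested.

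The deviations of same-numbered D3T and control rats from their group means had r = 0.27, -0.08, -0.10 and -0.20. Differently numbered rats were not compared, so these values cannot decide whether the numbers are pairs. The main fit took the rats as unpaired. With a replicate block the D3T count was 4: Gclc gained a call (adjusted p = 0.031) and both Gclm calls were lost (adjusted p = 0.074 and 0.073). Rat numbers of the other studies were not taken as pairs, and no block was fitted there.

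Mean array brightness did not overlap between the groups for D3T and for Wy-14643 at 1 and 3 days. With values as deposited, without scaling, an alternative chosen after seeing the data, the D3T count was 8 and that of Wy-14643 at 3 days was 6. Under D3T the direction turned for some probe sets called with or without scaling. These were Ephx1 (-0.21), Gclm in S65555_at (-1.40) and S65555_g_at (-1.74), Txnrd1 in its brighter (-1.63) and dimmer probe set (-1.28) and Hmox1 in rc_AI179610_at (-1.33). Of these only Ephx1 and S65555_at had been called with scaling. Gclc (-0.52) and Hmox1 in J02722cds_at (-0.37) turned as well, called neither with nor without scaling. With Wy-14643 at 3 days Hmox1 (0.64) and the dimmer Gclc probe set (0.72) were called higher without scaling. With scaling they had shown hardly any change (-0.07 for Hmox1 and -0.004 for Gclc). These changes carry the brightness of the arrays.

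Dim probe sets limit the rest. Akr1b8 and the vehicle levels of the second Nqo1 probe set lie near the floor. So do the control levels of Nqo1 in the D3T study and the vehicle levels of Srxn1. Changes there are understated and unstable. Groups of 2 or 3 rats leave wide intervals.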
